A study of Mus musculus with 15 samples.

Results

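The 7 genes described here encode the sterol regulatory element binding proteins and the machinery that releases them: Srebf1 and Srebf2 (the factors), Scap (their escort), Insig1 and Insig2 (the retention proteins), and Mbtps1 and Mbtps2 (the site-1 and site-2 proteases). They were chosen by name, as 7 of the 21770 protein-coding genes of the annotation, and every peak that overlapped the 2000 bp on either side of any of their annotated transcript starts was taken. H3K4me3, the trimethylation of lysine 4 of histone H3 found at active and poised promoters, had been mapped by ChIP–seq in mouse brown adipocytes called mBA cells. There were 4 ChIP samples of untreated wild-type cells (WT), 4 of wild-type cells given octyl d-2HG, a cell-permeable form of the metabolite d-2-hydroxyglutarate, in DMSO at 500 µM for 72 h (WT + 2HG), and 4 of cells without the mitochondrial matrix protease CLPP (CLPP-KO), with 3 input samples, 1 for each condition. By the study's methods the cells were brown preadipocytes immortalized with SV40 large T antigen and differentiated in culture, whereas the labels call them primary. Cells of every condition were kept in high-glucose DMEM without pyruvate, and CLPP-KO cells alone received uridine. The cells came from control and knockout mice, with animals of both sexes pooled, and the study defines a biological replicate as a separate culture, so the replicates are not separate animals. The CLPP-KO condition therefore differs from WT in genotype, in the mice its cells were derived from and in uridine, and these cannot be told apart. WT is labelled untreated, and whether it received DMSO alone is not stated. Peaks had been called jointly from the 4 replicates of each condition, so each condition has 1 list, no spread between replicates can be given, and all differences between lists below are descriptions without a test.

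The 2 SREBP genes encode transcription factors that are made as membrane proteins of the endoplasmic reticulum. Each precursor is bound by SCAP, which carries it to the Golgi apparatus when sterols are scarce. When sterols are plentiful, INSIG proteins hold the SCAP complex back. In the Golgi the site-1 protease makes the first cut and the site-2 protease, which works within the membrane, makes the next, and the freed N-terminal part enters the nucleus. SREBP-1c is best known for genes of fatty acid synthesis, SREBP2 for genes of cholesterol synthesis and uptake, and SREBP-1a can act on both. In fat cells these factors are part of the lipid synthesis programme.

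The lists held 12342 peaks in WT, 14059 in WT + 2HG and 15118 for CLPP-KO, with a median width of 825 to 885 bp. Each peak carried an area under the curve from the authors' peak caller, which is not scaled between lists and had a median of 2970 in WT, 5027 in WT + 2HG and 5744 for CLPP-KO. A peak was therefore given its percentile, the share of peaks of its own list whose area was no larger. A longer list can contain more weak peaks, which tends to raise the percentile of peaks that the lists share, though not of each one. The lists hold no read counts, and the depth behind each value is unknown. Of 8 general adipocyte markers, 2 (Pparg and Cebpa) had a promoter peak in WT, 5 in WT + 2HG and 4 for CLPP-KO, while Adipoq and Fabp4 had none in any list. Of 9 brown adipocyte markers, 2, 3 and 4 had one, respectively, and Ucp1, Ppargc1a, Dio2, Elovl3 and Cox7a1 had none in any list. All 5 preadipocyte or fibroblast markers, including Pdgfra and Dlk1, were marked in all lists. Of 9 endothelial, immune and muscle markers, only Kdr was marked in every list, and Myod1 was marked in CLPP-KO. The part of cell state in the values below was not tested. Clpp itself kept a promoter peak in all lists (percentiles 39.9, 45.2 and 43.4 in WT, WT + 2HG and CLPP-KO), which does not bear on whether the gene product was lost.

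All 7 genes had a promoter peak in every list. The background was high: 51.3% of all coding genes had one in WT, 56.4% in WT + 2HG and 58.2% for CLPP-KO. The genes held 8 promoter peaks in WT, 9 in WT + 2HG and 10 for CLPP-KO, and each gene other than Srebf1 held exactly 1 in each list. The member peak farthest from an annotated start lay 904 bp from it, and the nearest peak outside the windows of any of these genes was 15213 bp from a start, so the choice of window had little room to change the membership. In WT the strongest peaks were spread over nearly the whole range of the list. Srebf2 stood at percentile 93.4 and Insig1 at 76.5, followed by Scap (44.9), Mbtps2 (33.2), Srebf1 (31.8), Mbtps1 (15.9) and Insig2 (4.05). The median of the 7 was 33.2 in WT, 64.0 in WT + 2HG and 54.6 for CLPP-KO, beside 59.8, 64.8 and 67.0 over the 11021 coding genes marked in all lists. Because area grows with width, the peaks were also ranked by area per bp. On that scale Insig1 (97.2) and Srebf2 (93.5) were again the highest in WT and Insig2 (0.130) the lowest, while Srebf1 (44.6) and Scap (44.5) were level.

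**Figure D1:**
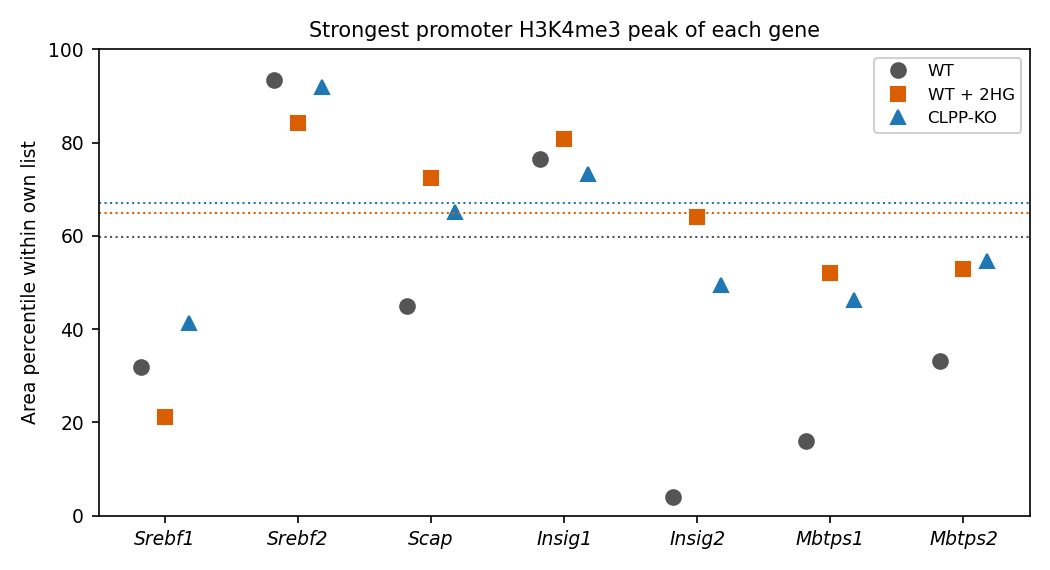
Area percentile (vertical axis, within each condition's own list) of the strongest promoter H3K4me3 peak of the 7 genes in WT (circles), WT + 2HG (squares) and CLPP-KO (triangles); each symbol is 1 list called on 4 replicates, and dotted lines are the medians of coding genes marked in all lists. Insig2 moves from 4.05 in WT to 64.0 and 49.5, whereas Srebf2 stays between 84.2 and 93.4.

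Srebf1 makes both SREBP-1 forms from separate starts, and it was the gene among the 7 with separate peaks at different starts. It lies on the minus strand of chromosome 11 (GRCm39, 60089913 to 60113407) and has 29 annotated transcripts in 8 groups of starts, a group being starts that follow each other within 500 bp. The canonical start at 60111468 is shared by 12 transcripts. Its first exon holds 91 coding bases, or 30 whole codons, as fits the long N-terminus of SREBP-1a. A second coding start lies 10177 bp downstream at 60101291, with 19 coding bases in its first exon, or 6 whole codons, as fits the short N-terminus of SREBP-1c. Both splice to the same second exon. A distal start lies 1939 bp upstream of the SREBP-1a start at 60113407 and is annotated without a defined coding sequence. The 250 bases upstream of each of these starts are printed because the peaks at the 3 starts differed between lists, from the GRCm39 genome on the minus strand at chr11:60113408-60113657 (distal), chr11:60111469-60111718 (SREBP-1a) and chr11:60101292-60101541 (SREBP-1c). Capitals mark CCAAT and GGGCGG on either strand and, in SREBP-1c, GGTTACTNG.
Srebf1 distal start: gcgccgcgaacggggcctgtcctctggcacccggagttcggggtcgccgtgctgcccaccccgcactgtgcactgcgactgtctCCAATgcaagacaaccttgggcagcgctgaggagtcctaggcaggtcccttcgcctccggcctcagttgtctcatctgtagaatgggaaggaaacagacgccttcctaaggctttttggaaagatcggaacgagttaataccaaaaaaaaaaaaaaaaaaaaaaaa
Srebf1 SREBP-1a start: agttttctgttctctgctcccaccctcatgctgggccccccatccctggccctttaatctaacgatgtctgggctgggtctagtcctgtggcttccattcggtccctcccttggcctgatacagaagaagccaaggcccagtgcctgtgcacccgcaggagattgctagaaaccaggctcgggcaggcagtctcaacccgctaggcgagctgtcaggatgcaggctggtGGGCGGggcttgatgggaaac
Srebf1 SREBP-1c start: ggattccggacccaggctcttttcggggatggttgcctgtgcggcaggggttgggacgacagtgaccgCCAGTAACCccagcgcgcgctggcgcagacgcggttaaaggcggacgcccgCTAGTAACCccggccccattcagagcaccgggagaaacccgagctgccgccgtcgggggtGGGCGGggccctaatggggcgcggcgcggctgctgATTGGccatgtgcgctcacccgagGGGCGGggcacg

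The stretch before the SREBP-1c start was rich in GC (70.8%, more than in 94.1% of coding promoters) and had a CpG ratio, observed over expected, of 0.939. The stretch before the SREBP-1a start had a GC content of 60.0% but a CpG ratio of 0.311, lower than the median of 0.697 over marked coding genes. The SREBP-1c stretch holds the letters GGTTACTNG at 2 places on the opposite strand, with first bases at −182 and −131. This promoter is known for elements bound by LXR, the oxysterol receptor, and the letters were searched after the sequence had been seen. Among the canonical promoters of all 21770 coding genes 0.464% held them.

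The SREBP-1a start carried the strongest peak of Srebf1 in each list. In WT it covered 60110934 to 60111451 (518 bp, percentile 31.8), in WT + 2HG 60110600 to 60111573 (974 bp, percentile 21.1) and in CLPP-KO 60110894 to 60111562 (669 bp, percentile 41.3). Its area, not scaled between lists, was 1595 in WT, 1323 in WT + 2HG and 4247 for CLPP-KO. The WT peak began 17 bp downstream of the SREBP-1a start, whereas those of WT + 2HG and CLPP-KO reached 105 and 94 bp upstream of it. The peak was thus wider in WT + 2HG than in the other lists and yet lower in rank, and by area per bp it stood at 13.1 there, against 44.6 in WT and 50.6 in CLPP-KO. By width alone the order of WT + 2HG and WT was the opposite, at 57.1 and 17.6.

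The SREBP-1c start also carried a peak in each list, and in each list it ranked below the peak at the SREBP-1a start. It ran from 60101019 to 60101731 in WT (713 bp, percentile 20.9), from 60101047 to 60101533 in WT + 2HG (487 bp, 8.19) and from 60101028 to 60101611 for CLPP-KO (584 bp, 24.5). Each of these peaks also covered the start of the lncRNA Gm73277, which runs in the opposite direction, and the mark does not tell the 2 genes apart. The summit −log10 p of the SREBP-1c peak was 4.77 in WT and 4.70 in WT + 2HG, so at a summit p of at most 1e-05 it was left out of both lists, and no member then had starts over 1000 bp apart in WT.

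A peak at the distal start was found in WT + 2HG (60113272 to 60113774, 503 bp, percentile 19.9) and also in CLPP-KO (60113454 to 60113830, 377 bp, percentile 12.8) and in neither case overlapped a WT peak. The WT + 2HG peak covered the start, while the CLPP-KO peak ended 47 bp upstream of it. The summit −log10 p of the distal peak was 6.26 in WT + 2HG and 4.85 in CLPP-KO. At a summit p of at most 1e-05 the CLPP-KO distal peak was therefore left out. In CLPP-KO a further peak of 236 bp at percentile 0.833 lay inside the gene, 20506 bp downstream of the SREBP-1a start and within the window of Mir6921. Srebf1 was the 1 gene of the 7 with a promoter peak absent from WT, in both lists, against 8.99% of all coding genes in WT + 2HG and 10.8% for CLPP-KO. When each list was limited to the size of the shortest, the CLPP-KO peaks absent from WT dropped out and the count there was 0. Srebf1 was likewise the 1 gene with marked starts over 1000 bp apart, against 3.50% of coding genes in WT, 4.66% in WT + 2HG and 4.82% for CLPP-KO. Peaks covered 1231, 1964 and 1866 bp of its promoter windows in WT, WT + 2HG and CLPP-KO.

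**Figure D2:**
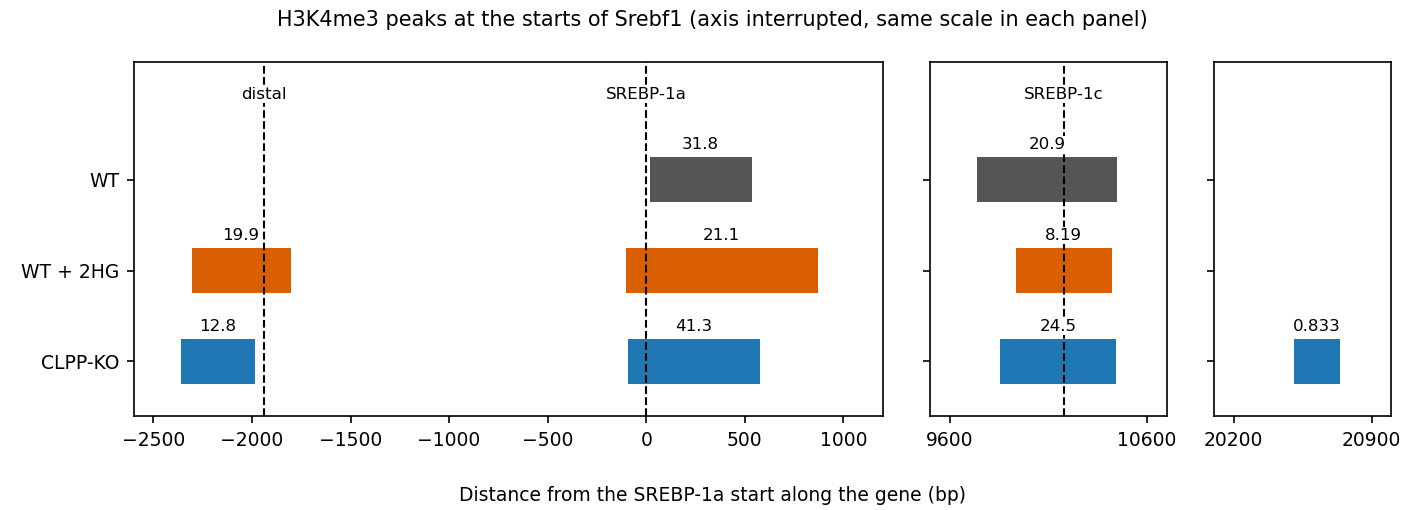
H3K4me3 peaks of the 3 lists at Srebf1, drawn as bars by their distance from the SREBP-1a start along the gene (horizontal axis, bp, interrupted), with annotated starts as dashed lines and the area percentile of each peak above it. The distal start has a peak in WT + 2HG (19.9) and CLPP-KO (12.8) and none in WT.

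Srebf2, the gene of the cholesterol-directed factor, had the strongest WT peak of the 7. It is on chromosome 15, plus strand, at 82031382 to 82093201, with 3 groups of starts. The peak of each list was given to a start of the canonical group. It also covered the start at 82032214, 832 bp downstream of the canonical start, in a group with 2 transcripts. The remaining group had no peak. The peak spanned 82031409 to 82032700 in WT (1292 bp, percentile 93.4), 82031306 to 82032450 in WT + 2HG (1145 bp, 84.2) and 82031289 to 82032687 for CLPP-KO (1399 bp, 91.9). It was the widest peak of the 7 genes in WT. Its area, not scaled between lists, was 9125 in WT, 11683 in WT + 2HG and 16635 for CLPP-KO. In WT + 2HG the peak was narrower than in WT, with a percentile shift of −9.20 points, and in CLPP-KO the shift was −1.46 points. A lower percentile is a lower rank within its list and does not mean a smaller area. The size of the WT + 2HG difference depended on the ranking. By area per bp the values in WT, WT + 2HG and CLPP-KO were 93.5, 90.2 and 92.0, and by summit p they were 95.3, 72.5 and 98.3, with shifts of −22.8 and 2.99 points. All 3 peaks covered the start of the lncRNA Gm56711 on the opposite strand, 377 bp inside Srebf2. Mir33, the microRNA within Srebf2, had no promoter peak of its own in any list. The 250 bases before the start (plus strand, chr15:82031132-82031381) are shown because SREBP genes are known to carry sterol regulatory elements, with capitals at TCACNCCA, CCAAT and GGGCGG on either strand.
Srebf2: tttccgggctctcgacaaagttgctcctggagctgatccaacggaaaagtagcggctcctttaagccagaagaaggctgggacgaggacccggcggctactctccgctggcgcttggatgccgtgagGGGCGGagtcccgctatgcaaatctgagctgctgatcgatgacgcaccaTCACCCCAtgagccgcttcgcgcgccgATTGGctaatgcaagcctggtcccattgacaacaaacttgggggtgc

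The sterol regulatory element of the LDL receptor type, TCACNCCAC, was in none of the 9 stretches examined (the 3 Srebf1 starts and the canonical starts of the other 6 genes), against 1.12% of coding promoters. Without its last letter, a form searched after the sequences had been seen, it was at −74 of Srebf2 and in 3.43% of coding promoters, among them those with the longer form. Downstream of it, at −47, Srebf2 has CCAAT on the opposite strand, the motif of NF-Y, which is a known partner of SREBPs.

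Scap encodes the sterol-sensing escort of the SREBP precursors. It is on chromosome 9, plus strand, at 110158229 to 110214024, and 1 of its 7 groups of starts was marked, the group of the canonical start that holds 39 of 49 transcripts. The start 4189 bp upstream had no peak. The Scap peak spanned 110162307 to 110163142 in WT (836 bp, percentile 44.9), 110162348 to 110163193 in WT + 2HG (846 bp, 72.5) and 110162298 to 110163338 for CLPP-KO (1041 bp, 65.1). Its percentile was 27.6 points above WT in WT + 2HG and 20.2 points above for CLPP-KO. The width in WT + 2HG was within 10 bp of that in WT, and ranked by width the shift was −4.89. By area per bp the same peak went from 44.5 in WT to 91.5 in WT + 2HG and 65.3 for CLPP-KO.

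Insig1 and Insig2 encode the proteins that hold SCAP in the endoplasmic reticulum, and of the pair Insig1 is known as the one that SREBPs themselves induce. Insig1 is on chromosome 5, plus strand, at 28276315 to 28283668. Its peak spanned 28276288 to 28276982 in WT (695 bp, percentile 76.5), 28275850 to 28277148 in WT + 2HG (1299 bp, 80.7) and 28275867 to 28276971 for CLPP-KO (1105 bp, 73.2). The rank by area changed little, by 4.11 points in WT + 2HG and −3.34 for CLPP-KO. The upstream edge changed more, from 39 bp upstream of the canonical start in WT to 477 bp in WT + 2HG and 460 bp for CLPP-KO. Among coding genes whose strongest peak covered the canonical start, the median reach upstream was 147 bp in WT, 197 bp in WT + 2HG and 195 bp for CLPP-KO. The wider Insig1 peaks covered 5 of the 19 starts of the lncRNA Gm26608 on the opposite strand, the nearest of them 204 bp upstream of the Insig1 start, and the WT peak covered none. With the width the rank by area per bp went the other way, from 97.2 in WT to 76.2 in WT + 2HG and 74.3 for CLPP-KO.

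Insig2 had the weakest WT peak of the 7 and the largest difference between lists. It is on chromosome 1, minus strand, at 121181760 to 121260400. Its peak spanned 121255143 to 121255932 in WT (790 bp), 121254948 to 121256059 in WT + 2HG (1112 bp) and 121254786 to 121256331 for CLPP-KO (1546 bp). The area was 272 in WT, near the smallest in that list (200), and 7250 and 5645 in WT + 2HG and CLPP-KO. The percentile was 4.05, 64.0 and 49.5, a shift of 59.9 points in WT + 2HG and 45.4 for CLPP-KO. The WT peak was of ordinary width (percentile 46.1) but at percentile 0.130 by area per bp, with a summit −log10 p of 3.56. At a summit p of at most 1e-05 it was not in the WT list at all, and Insig2 then joined Srebf1 as a gene with a peak absent from WT in both WT + 2HG and CLPP-KO. All Insig2 peaks lay at the group of the canonical start at 121255794, which holds 30 of its 39 transcripts. The upstream group 4606 bp away, with 4 transcripts, had no peak in any list. Each peak also covered the start of Gm37174, a predicted transcript on the opposite strand 27 bp upstream, and the mark does not tell these apart.

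The 250 bases before the starts of the INSIG genes are set side by side because the pair differed most in WT rank, from chr5:28276077-28276326 (Insig1, plus strand) and chr1:121255795-121256044 (Insig2, minus strand), with capitals at CCAAT and GGGCGG on either strand.
Insig1: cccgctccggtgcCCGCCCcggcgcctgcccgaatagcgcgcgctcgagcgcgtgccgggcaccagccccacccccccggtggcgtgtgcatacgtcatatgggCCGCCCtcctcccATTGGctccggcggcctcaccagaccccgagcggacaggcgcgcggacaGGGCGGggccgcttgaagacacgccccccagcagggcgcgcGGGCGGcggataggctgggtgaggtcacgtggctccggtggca
Insig2: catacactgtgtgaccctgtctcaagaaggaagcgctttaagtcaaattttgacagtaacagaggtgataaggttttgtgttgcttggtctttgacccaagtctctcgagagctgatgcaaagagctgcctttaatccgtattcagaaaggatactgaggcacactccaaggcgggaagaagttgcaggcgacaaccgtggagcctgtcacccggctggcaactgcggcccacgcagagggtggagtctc

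The Insig1 stretch had a GC content of 76.4%, higher than 98.3% of coding promoters, with 34 CpG sites, 4 GGGCGG boxes and 1 CCAAT. The Insig2 stretch had a GC content of 51.6%, 9 CpG sites and neither motif. The medians were 53.2% over all coding promoters and 58.4% over coding genes marked in all lists.

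Mbtps1, the gene of the site-1 protease, had a narrow peak in WT that was wider in the other lists. It is on chromosome 8, minus strand, at 120234415 to 120285605. The peak spanned 120285255 to 120285573 in WT (319 bp, percentile 15.9), 120284812 to 120285594 in WT + 2HG (783 bp, 52.0) and 120284637 to 120285617 for CLPP-KO (981 bp, 46.2). The width percentile was 3.85 in WT, 40.3 in WT + 2HG and 59.7 for CLPP-KO. The downstream edge lay 343 bp downstream of the canonical start in WT and 786 and 961 bp downstream of it in the others. Because the WT peak was so narrow, it did not meet an overlap of 50% of both peaks with either of the others, and under that rule Mbtps1 also counted as having a peak absent from WT.

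Mbtps2, the gene of the site-2 protease, lies on the minus strand of the X chromosome from 156318367 to 156381711. Its peak spanned 156381010 to 156381658 in WT (649 bp, percentile 33.2), 156380946 to 156381748 in WT + 2HG (803 bp, 52.9) and 156381014 to 156381747 for CLPP-KO (734 bp, 54.6). The shift was 19.7 points in WT + 2HG and 21.4 for CLPP-KO, in widths that differed by 154 and 85 bp from WT. The stretch before its start had a CpG ratio of 1.17, above that of 99.2% of coding promoters. The lncRNA Gm61749 starts 119 bp upstream on the opposite strand and was not covered by the peak of any list.

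**Figure D3:**
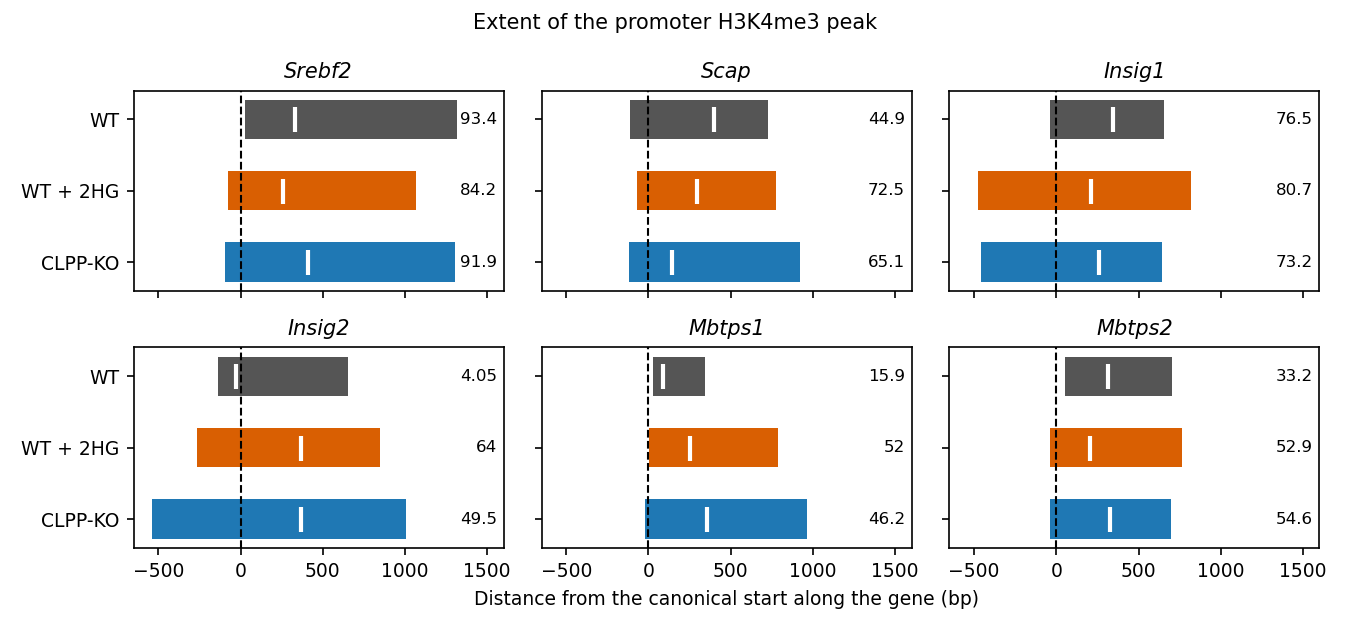
Extent of the promoter peak of 6 genes in each list, as bars by distance from the canonical start along the gene (horizontal axis, bp, start at the dashed line), with the peak summit in white and the area percentile at the right. The Insig1 bar begins 39 bp upstream in WT and over 400 bp upstream in WT + 2HG and CLPP-KO, and the Mbtps1 bar is 319 bp long in WT against 783 and 981 bp.

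The strongest peak covered the canonical start at 3 of the 7 genes in WT (Scap, Insig1 and Insig2), at 6 in WT + 2HG (all except Mbtps1) and at all 7 for CLPP-KO. Over coding genes marked in all lists the shares moved the same way, from 53.1% in WT to 71.4% in WT + 2HG and 71.1% for CLPP-KO. In WT the strongest peaks of Srebf1, Srebf2, Mbtps1 and Mbtps2 began 17 to 53 bp downstream of the canonical start.

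Against WT, 4 genes (Scap, Insig2, Mbtps1 and Mbtps2) stood at least 10 percentile points higher in WT + 2HG, where 32.0% of coding genes marked in all lists did so, and 1 (Srebf1) stood at least 10 points lower, against 9.74%. In CLPP-KO the same 4 genes stood at least 10 points higher, against 36.2%, and 0 lower, against 6.56%. Both comparisons share the WT list, so their likeness is not independent. The median shift of the 7 was 19.7 points in WT + 2HG and 20.2 for CLPP-KO, beside 3.69 and 5.30 over the 11021 coding genes. With lists of equal size the median of all coding genes was −0.02 and −0.51, with 20.5% up and 20.0% down in WT + 2HG and 18.6% up and 21.7% down for CLPP-KO. The 7 genes then had a median of 13.2 and 11.2, with 4 up in each list, 2 down in WT + 2HG and 0 down for CLPP-KO.

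A low WT rank goes with a larger upward shift in these lists, so each gene was also set beside coding genes of its own band of the WT list, the bands being 25 percentile points wide. In the lowest band the median shift was 15.1 points in WT + 2HG and 17.9 for CLPP-KO, and in the highest −0.30 and 0.08. Of the 1580 genes of the lowest band, 0.316% had a larger shift than Insig2 in WT + 2HG and 5.13% for CLPP-KO. Insig2 stood low in that band, at 4.05 in WT, so the band does not closely match its WT rank. For Mbtps1 in the same band the shares were 6.65 and 18.9%. Of the 2685 genes of the next band, 8.86 and 26.1% had a larger shift than Scap, and 22.4 and 22.7% a larger one than Mbtps2. Srebf1, of the same band, was on the other side in WT + 2HG, where 95.6% of these genes had a larger shift, while in CLPP-KO the share was 59.7%. Over all 11021 coding genes, 5 had a larger shift than Insig2 in WT + 2HG and 133 for CLPP-KO. Insig2 and Mbtps1 kept shifts of 10 points or more in both lists under each of the 8 other rankings and windows tried, Scap did so in CLPP-KO, and Mbtps2 did so in WT + 2HG under the 7 that could be run on the X chromosome. Some of these alternatives had little room to matter. The window of 1000 bp left the shifts of the members unchanged, and a limit to chromosomes 1 to 19 changed them little.

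**Figure D4:**
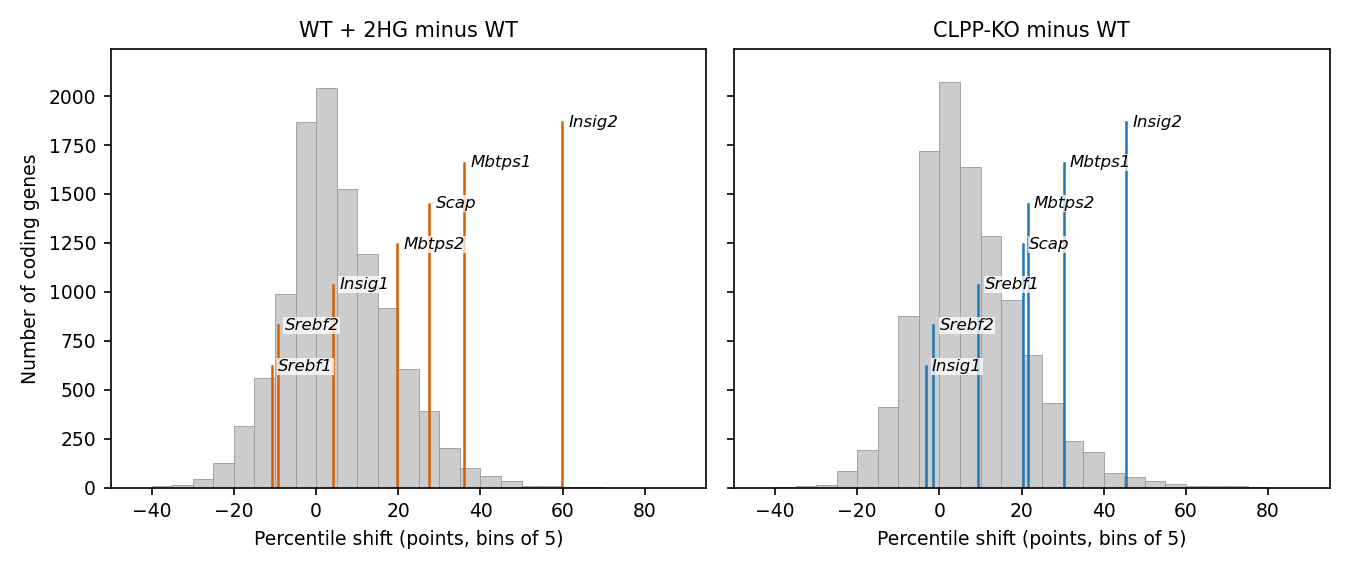
Number of coding genes (vertical axis) by percentile shift against WT (horizontal axis, points, bins of 5) among the 11021 genes marked in all lists, for WT + 2HG and CLPP-KO, with the 7 genes as labelled lines whose height has no meaning. Insig2 lies far to the right in both, at 59.9 and 45.4 points, and Srebf1 lies at −10.7 in WT + 2HG and 9.51 for CLPP-KO.

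Other genes of the pathway were taken from lists of 41 genes. Of these, 37 had a promoter peak in WT and 39 in each of WT + 2HG and CLPP-KO. The shares of all coding genes were 51.3, 56.4 and 58.2%. Among the 37 marked in all lists the median shift was 0.43 in WT + 2HG and 1.93 for CLPP-KO. Over the 11021 coding genes it was 3.69 and 5.30. In WT + 2HG 7 stood at least 10 points higher and 3 lower, against 32.0 and 9.74% of those coding genes. In CLPP-KO 10 stood higher and 3 lower, against 36.2 and 6.56%. Of the 9 genes for degradation of INSIG and its relatives, all were marked in all lists, with a median of 88.8 in WT, 86.5 in WT + 2HG and 86.6 for CLPP-KO. Aup1, an anchor of the ubiquitin-conjugating enzyme, stood at 95.4, 95.8 and 97.4. The lowest of this list were Erlin2 (51.7, 59.6 and 60.1), a scaffold of the degradation complex, and Ufd1 (35.8, 36.3 and 35.7), which helps to extract proteins from the membrane.

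Of 11 genes of ER-to-Golgi transport, the route of the SCAP complex, 10 were marked in all lists. Sec24c, a cargo-binding coat subunit, was marked in WT + 2HG (17.7) and CLPP-KO (1.82) but not in WT. Sec24a and the GTPase gene Sar1b shared a single peak and stood together at 91.9, 90.3 and 91.5. Sec23b, another coat subunit, was at 25.0, 17.9 and 19.5. Among these 10, shifts of at least 10 points upward numbered 3 in WT + 2HG and 2 for CLPP-KO. The shares of coding genes marked in all lists were 32.0 and 36.2%.

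Of 8 genes for a cofactor and other substrates of the proteases, Creb3l3 and Creb3l4 had no promoter peak in any list and 6 were marked in all. Atf6b and Creb3l1, which encode transcription factors anchored in the same membrane, had the highest CLPP-KO ranks, with Atf6b at 65.6, 63.8 and 80.4 and Creb3l1 at 78.3, 86.1 and 75.8 in WT, WT + 2HG and CLPP-KO. Atf6, of the unfolded protein response, stayed at 18.5, 18.5 and 17.4. Spring1, the cofactor of the site-1 protease, was at 37.8, 37.0 and 63.4, and so lay within 1 point of WT in WT + 2HG where Mbtps1 was 36.0 points higher.

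Of 13 nuclear partners and regulators, 12 were marked in all lists. Nr1h3, the gene of LXRα, had a weak peak in WT + 2HG (5.58) and CLPP-KO (6.07) and none in WT. Fbxw7, the ubiquitin ligase subunit for nuclear SREBP, stood at 98.9, 99.6 and 98.5, and the coactivator gene Ep300 at 92.4, 96.2 and 96.5. Lpin1, a lipid phosphatase gene among the regulators of nuclear SREBP, was at 30.9, 30.2 and 42.9.

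The coding genes nearest to Srebf1 by Euclidean distance over the percentiles of the 3 lists were Mlf1 (1.87 points away), Yif1b (2.04) and Gm4924 (2.30). Those nearest to Srebf2 were Csk (1.16), Ube3a (1.17) and Mta3 (1.22). With 3 values a gene, such distances describe the lists and say nothing of shared control.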

How the data were processed

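H3K4me3 ChIP–seq peaks of 3 conditions were used. The authors trimmed reads with fastp 0.23.4, mapped them with BWA 0.7.17 to GRCm39 and called peaks with Genrich 0.6.1 on the 4 replicates of a condition and its input together (q of at most 0.05, area of at least 20). For each deposited peak the authors give a score with a ceiling of 1000, a signal (Genrich's area under the curve) and the −log10 p-value of the summit. The q field is not filled in, and the smallest area present is 200. The study's stated peak-calling commands also exclude the X chromosome, yet each list holds peaks there, among them those of Mbtps2. The stated settings therefore do not fully describe the deposited lists. Summit positions, the authors' other deposited values, are offsets in bp.

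A promoter was 2000 bp on either side of any transcript start of GENCODE M39 (78289 genes, 317013 gene and start pairs). Each peak was given to a single start of a gene, the nearest one. Where it covered several, the start nearest its summit was taken. A gene was represented by its strongest promoter peak by area, ranked within its list. Peaks were shared when they overlapped by 1 bp. A shift of 10 percentile points was the threshold of size. Protein sequences were not analysed here. Members, gene lists and the named genes (all members, and in each list those with a changed status and the 2 highest and 2 lowest in CLPP-KO) were chosen with earlier results of these data known. Some of these named genes are not reported. The code was tested on simulated data. Python 3.11.15, numpy 2.4.6, pandas 2.3.3, pysam 0.24.0 and matplotlib 3.10.9 were used. The alternatives changed the window, the starts, the summit, the p threshold, list size, merging, overlap and ranking.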

Additional observations from a re-analysis of the deposited data

How the results depend on the processing

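The count of 7 genes with a promoter peak held in every list under the alternatives tried, except that at a summit p of at most 1e-05 it was 6 in WT, without Insig2. At that threshold the WT count of genes with starts over 1000 bp apart was 0, and the count with a peak absent from WT was 2 in both WT + 2HG and CLPP-KO (Srebf1 and Insig2). In CLPP-KO the distal Srebf1 peak was then left out. Srebf1 still counted there through its SREBP-1c peak, because the WT peak at that start had been left out too. With lists of equal size the count with a peak absent from WT was 0 in CLPP-KO. With a reciprocal overlap of at least 50% it was 2 in both (Srebf1 and Mbtps1). Ranked by width, the WT + 2HG shift of Srebf1 was 39.5 points and that of Scap −4.89, both opposite to the ranking by area, and the direction for Insig1 and, in CLPP-KO, for Srebf1 and Srebf2 also depended on the processing. Ranked by summit p, Srebf2 shifted by −22.8 points in WT + 2HG and 2.99 for CLPP-KO. No paired analysis was possible because each list pools the 4 replicates of its condition, which also means that no replicate could be left out. The lists give no counts, so the depth sets an unknown limit on weak peaks such as those at the distal Srebf1 start.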
